A study of Bos taurus with 12 samples.

Results

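The genes of protein folding in the endoplasmic reticulum (ER), of its stress response and of vesicle transport between the ER and the Golgi were compared between hypertrophic zone (HZ) and reserve zone (RZ) chondrocytes of the cattle growth plate. The members were all probe sets whose platform symbol was 1 of 58 listed genes, which gave 75 probe sets of 50 genes out of 24016 probe sets and 9155 named genes. The other 8 listed genes, PDIA6, ATF6, XBP1, EDEM1, SEC23B, SEC24A, SEC24D and LMAN1, had no probe set of that name and were not analysed here. The cells were taken at the distal end of the metacarpus, from male dairy cattle that had not reached 10 months of age. They were freed from the matrix with Collagenase P in 4 hours and parted by density, with the lightest cells taken as HZ and the densest as RZ. The 12 arrays, 6 of HZ and 6 of RZ, form pairs numbered 1 to 6, and so few arrays limit how precise any value can be. No treatment or genotype separates the groups. The series description calls the pairs independent without saying whether each was 1 animal, so p-values speak only of the spread among the 6 pairs, which may be partly technical.

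A chondrocyte secretes collagens and proteoglycans, and each of these enters the ER before it reaches the matrix. New chains pass through the SEC61 channel, are folded by chaperones and thiol isomerases, and leave in COPII-coated vesicles, while COPI-coated vesicles and KDEL receptors bring escaped ER proteins back. When unfolded protein builds up, the sensors PERK (EIF2AK3), ATF6 and IRE1 raise chaperone synthesis, and PERK acts through the transcription factor ATF4. Proteins that cannot be folded are returned to the cytosol and degraded. Splicing of XBP1, cleavage of ATF6 and phosphorylation in the PERK arm are not read by these arrays, which measure RNA level only.

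No member gene rose in HZ and 2 of 50 fell, TRIB3, a pseudokinase that restrains stress signalling, and SEC61A1, the pore subunit of the translocation channel. TRIB3 was 1.89-fold lower and SEC61A1 1.56-fold lower in HZ. Where a gene had several probe sets, the brightest on average stood for it. The test was limma, blocked on pair, its p-values adjusted by Benjamini-Hochberg across the 24016 probe sets, with a threshold of 0.05. Over all probe sets 2.96% were called lower and 3.26% higher, so the share of 4.00% of members that fell is near the background. At an unadjusted p under 0.05, 13 members were lower and 1 was higher, where 11.8% and 10.4% of all probe sets were. The members lay mostly on 1 side of zero, with 43 of 50 differences negative (86.0%), against 51.2% of all probe sets. All 50 members were among the brighter 12008 probe sets, whose own share of negative differences was not computed. Tested alone, those 12008 had 1374 called lower and 1034 higher, so all probe sets are not a background matched for brightness. HZ was lower in all 6 pairs for 5 members and higher in all 6 for 1, where 7.15% and 6.85% of all probe sets were. The median log2 difference of the members was -0.22, and that of all probe sets was -0.01. Log2 differences are HZ minus RZ on the scale of log2(signal + 16), which understates changes of dim probe sets. For all 50 members the upper end of the 95% interval lay below 1, and for 44 the lower end lay above -1. In bulk RNA, fewer cells of a type and less RNA per cell cannot be told apart.

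**Figure D1:**
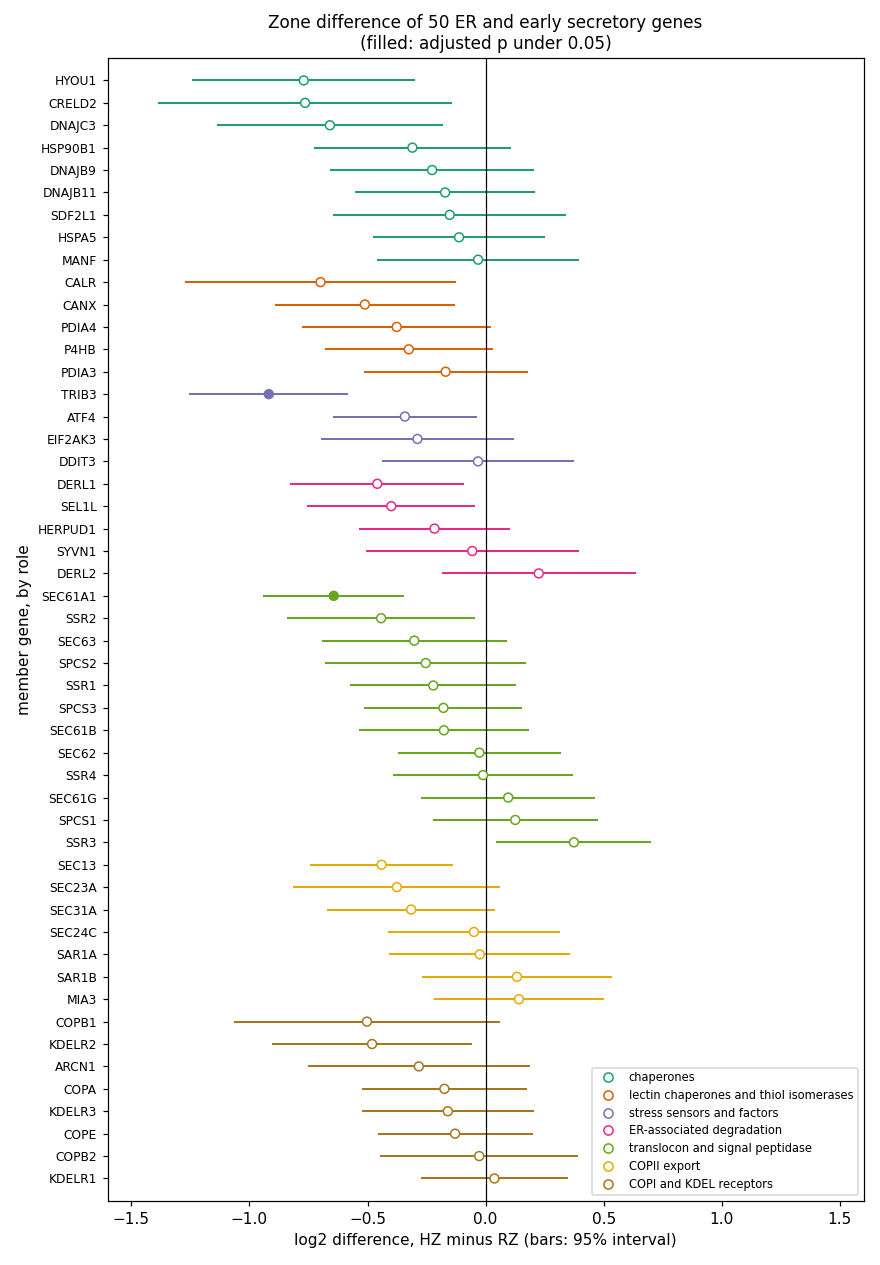
Log2 difference of HZ minus RZ (horizontal axis) for the 50 member genes, grouped by role, each at its brightest probe set. Points are limma estimates over 6 pairs, bars are 95% intervals, and filled points passed; 43 points lie left of zero, and TRIB3 and SEC61A1 are the filled ones.

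Of the 4 measured sensors and factors of the stress response, 1 fell and all 4 were negative. That gene, TRIB3, is induced by ATF4 and by DDIT3 (CHOP), the factor that promotes death under lasting stress. TRIB3 signal had a lowest, median and highest value of 377, 635 and 1186 in HZ, against 537, 1274 and 2151 in RZ. In pairs 1 to 6 it read 1186, 610, 659, 1005, 414 and 377 in HZ, against 2151, 1360, 1187, 1939, 1012 and 537 in RZ. The zones overlapped across pairs, but within each of the 6 pairs the HZ array was the lower one. The log2 difference of TRIB3 was -0.92 ± 0.15 (SE, limma adjusted p = 0.010), and the difference within pairs ran from -1.26 in pair 5 to -0.49 in pair 6. TRIB3 passed in all 6 fits that left out a pair (adjusted p 0.0196 to 0.0423). Without the block for the pairs it did not pass (adjusted p = 0.185). Its level differed between pairs: both arrays of pairs 1 and 4 held the highest TRIB3 signals of their zone, and both arrays of pair 6 the lowest.

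ATF4 itself, the transcription factor of the PERK arm, had signals of 7154, 8921 and 9636 (lowest, median, highest) in HZ, against 9868, 10408 and 12499 in RZ. Every HZ array lay below every RZ array, a pattern found in 1 of 50 members and in 1.21% of all probe sets. The ATF4 difference of -0.34 ± 0.14 (SE) did not pass (limma adjusted p = 0.175). It did with 64 in place of 16 added to the signal (adjusted p = 0.0481), where 1120 of 24016 probe sets were called lower. EIF2AK3, the PERK kinase, gave -0.29 ± 0.18 and DDIT3 -0.03 ± 0.18 (adjusted p = 0.403 and 0.950). DDIT3 averaged a signal of 664 ± 254 in the 6 HZ arrays, against 676 ± 269 in the 6 RZ arrays (SD), and its 95% interval of -0.44 to 0.37 shows how large a difference could have been missed.

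Other genes of the stress response, from a list of 15 measured genes beside the members, included 2 that fell (13.3%) and 0 that rose. Over all probe sets 2.96% fell and 3.26% rose. ATF5, a factor of the same family whose transcription ATF4 can drive, had signals of 78.4, 157 and 183 in HZ, against 295, 393 and 549 in RZ. Its zones did not overlap, and the difference of -1.42 ± 0.15 (SE, adjusted p = 0.00175) was 2.67-fold. SESN2, a stress-induced inhibitor of mTORC1 signalling that ATF4 can also induce, had signals of 348, 695 and 1080 in HZ, against 710, 1473 and 1805 in RZ. SESN2 fell by 0.97 ± 0.15 (SE, adjusted p = 0.00774), and another of its probe sets fell by 1.19. ATF5 and SESN2 passed in all 6 fits with a pair left out, and without the block ATF5 passed and SESN2 did not (adjusted p = 0.0837). CHAC1, which degrades glutathione, gave -0.44 ± 0.15 (adjusted p = 0.122) and DDIT4, another mTORC1 inhibitor, -0.64 ± 0.17 (adjusted p = 0.0532), both lower in HZ in 6 of 6 pairs. These did not pass and are named after their values were seen, as are ATF3 and PPP1R15A. ATF3 gave 0.09 ± 0.34 and PPP1R15A, which reverses the PERK signal, -0.17 ± 0.16.

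**Figure D2:**
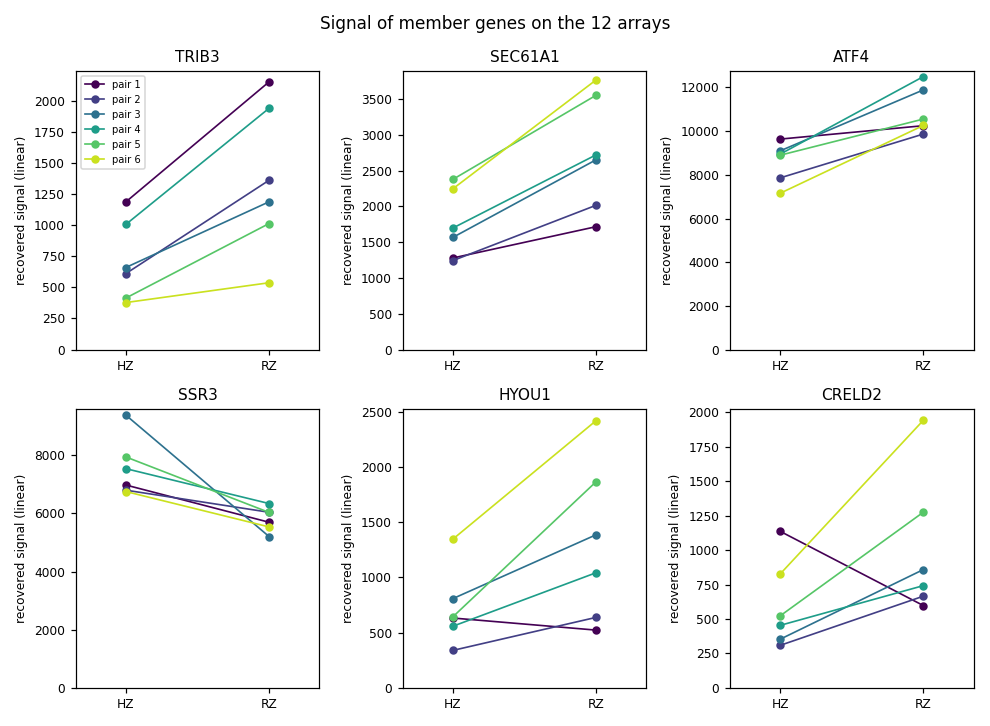
Recovered signal on a linear axis for 6 member genes, HZ left and RZ right, with a line joining the arrays of each pair. TRIB3 and SEC61A1 are lower in HZ in all 6 pairs, ATF4 and SSR3 show zones that do not overlap, and HYOU1 and CRELD2 are lower in HZ in 5 of 6 pairs, all but pair 1.

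None of the 9 ER chaperones and their helpers passed, and all 9 differences were negative, with a median of -0.23. When only the brighter 12008 probe sets were tested, HYOU1, DNAJC3 and CRELD2 passed (limma adjusted p = 0.0114, 0.0266 and 0.0379). In that setting calls were more common, with 1374 of the 12008 lower and 1034 higher. HYOU1 also passed with 64 added (adjusted p = 0.0427), where 1120 of 24016 were lower. The largest differences were those of HYOU1, a large HSP70-type chaperone that exchanges nucleotide on BiP, and of CRELD2, a stress-induced isomerase-like protein. HYOU1 had signals of 339, 637 and 1346 in HZ, against 522, 1214 and 2420 in RZ. Its difference was -0.77 ± 0.21 (SE, adjusted p = 0.0635), negative in every pair but pair 1, and without pair 1 it passed at -0.98 (adjusted p = 0.0289). The 4 other HYOU1 probe sets, all dim, gave -0.24 to 0.06. CRELD2 had signals of 308, 487 and 1137 in HZ, against 597, 800 and 1942 in RZ, and gave -0.76 ± 0.28 (adjusted p = 0.143). In pair 1 it was 0.91 higher in HZ, and in the other pairs between -1.26 and -0.69. With 1 pair left out it passed in 1 of 6 fits, that without pair 1 (-1.10, adjusted p = 0.0181), and reached 0.304 in the others. DNAJC3, a co-chaperone that also inhibits PERK, gave -0.66 ± 0.21 (adjusted p = 0.105), at 0.02 and 0.05 in pairs 1 and 3 and -0.54 to -1.27 in the others.

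HSPA5, which encodes BiP, the main ER chaperone, differed little at its brightest probe set. Its signal was 10498, 13199 and 17205 in HZ, against 12507, 14256 and 17684 in RZ, a difference of -0.11 ± 0.16 (95% interval -0.48 to 0.25, adjusted p = 0.755). A second HSPA5 probe set gave -0.64 ± 0.23 (adjusted p = 0.128) and another, dim one -0.86 ± 0.24 (adjusted p = 0.0640). HSP90B1 (GRP94) gave -0.31, DNAJB9 -0.23, DNAJB11 -0.17 and SDF2L1 -0.15. MANF, a secreted stress-induced protein, gave -0.03 ± 0.19, with mean signals of 7557 ± 1841 over HZ arrays and 7620 ± 1300 over RZ arrays (SD, 6 each).

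Of the lectin chaperones and thiol isomerases, 5 of 5 measured genes were negative, with a median of -0.38, and 0 passed. Among the brighter probe sets alone, where 1374 of 12008 were called lower, CALR and CANX passed (limma adjusted p = 0.0404 and 0.0375). CALR, calreticulin, which holds glycoproteins during folding, had signals of 1012, 2007 and 4627 in HZ, against 2507, 3330 and 5345 in RZ. Its difference was -0.70 ± 0.26 (SE, adjusted p = 0.144), between -1.43 and -1.35 in pairs 3, 4 and 5 and between -0.21 and 0.20 in the others. CANX, the membrane-bound partner of CALR, had signals of 2920, 3343 and 5563 in HZ, against 4344, 5217 and 6516 in RZ. CANX gave -0.51 ± 0.17 (adjusted p = 0.111) and was lower in HZ in every pair but pair 3. With 1 pair left out it passed in 1 of 6 fits, that without pair 3 (-0.66, adjusted p = 0.0358), and reached 0.264 in the others. The fit without pair 3 called 895 of 24016 probe sets lower, against 712 in the main fit. P4HB, a disulphide isomerase that is also the beta subunit of collagen prolyl 4-hydroxylase, gave -0.33 ± 0.16 (adjusted p = 0.268). PDIA4 gave -0.38 and PDIA3, the isomerase that works with CALR and CANX, -0.17.

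In the list of other folding genes, 3 of 20 measured fell (15.0%) and 0 rose, where 2.96% and 3.26% of all probe sets did. SIL1, which like HYOU1 exchanges nucleotide on BiP, fell by 0.80 ± 0.15 (SE, limma adjusted p = 0.0179), with signals of 161, 338 and 467 in HZ, against 317, 516 and 831 in RZ. FKBP9, an ER prolyl isomerase, fell by 0.95 ± 0.20 (adjusted p = 0.0253), with signals of 988, 1383 and 3225 in HZ, against 2514, 2829 and 4269 in RZ. PDIA5, a disulphide isomerase, fell by 0.70 ± 0.16 (adjusted p = 0.0308), with signals of 240, 406 and 623 in HZ, against 411, 711 and 886 in RZ. These 3 were lower in HZ in each of 6 pairs. With a pair left out, SIL1 passed in 4 of 6 fits (adjusted p up to 0.0621), FKBP9 in 2 (up to 0.0807) and PDIA5 in 1 (up to 0.0947). FKBP7, a related isomerase, gave 1.14 ± 0.30 and did not pass (adjusted p = 0.0524). TXNDC5, a thiol isomerase, did not pass at its brightest probe set (-0.30 ± 0.14), while its other one fell by 0.91 ± 0.17 (adjusted p = 0.0174). FKBP7 and TXNDC5 are named after their values were seen.

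Of the 5 measured genes of ER-associated degradation, 4 were negative and 0 passed (median -0.22). DERL1, part of the channel through which proteins leave the ER, gave -0.46 ± 0.16 (SE, adjusted p = 0.137), and its relative DERL2 gave 0.23 ± 0.18 (adjusted p = 0.531). The ligase SYVN1 (HRD1) gave -0.06 ± 0.20, and SEL1L, its cofactor, -0.40 ± 0.16 with lower HZ signal in 6 of 6 pairs (adjusted p = 0.174). HERPUD1, which is strongly stress-induced, gave -0.22 ± 0.14. Of 12 further genes of this pathway, the ubiquitin-conjugating enzyme UBE2G2 rose by 0.59 ± 0.15 (adjusted p = 0.0480) and its relative UBE2J1, a dim probe set, fell by 0.87 ± 0.22 (adjusted p = 0.0455). Each is 8.33% of that list, where 3.26% of all probe sets rose and 2.96% fell. UBE2G2 had signals of 612, 833 and 939 in HZ, against 354, 540 and 655 in RZ. UBE2J1 had 3.78, 33.5 and 54.2 in HZ, against 42.4, 61.2 and 82.7 in RZ. UBE2G2 passed in 0 and UBE2J1 in 1 of the 6 limma fits with a pair left out, with adjusted p up to 0.135 and 0.121, and the second UBE2G2 probe set gave -0.13.

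At the translocation channel, SEC61A1 fell and its partners did not pass. SEC61A1 had signals of 1243, 1633 and 2378 in HZ, against 1717, 2687 and 3769 in RZ. In pairs 1 to 6 it read 1280, 1243, 1568, 1698, 2378 and 2247 in HZ, against 1717, 2017, 2653, 2722, 3555 and 3769 in RZ. The zones overlapped over all arrays, and within the 6 pairs HZ was lower, between -0.75 and -0.42, for a difference of -0.64 ± 0.13 (SE, limma adjusted p = 0.0234). It passed in 1 of the 6 fits with a pair left out, that without pair 3 (adjusted p = 0.0373), where 895 of 24016 probe sets were called lower. In the others its adjusted p was 0.0526 to 0.0705. Without the block for pairs the adjusted p was 0.166. The call also ended on the deposited ratio (adjusted p = 0.0614) and with 1 in place of 16 added to the signal (adjusted p = 0.0588). The small subunits SEC61B and SEC61G gave -0.18 ± 0.16 and 0.10 ± 0.16, and SEC62 and SEC63, which help chains enter after synthesis, gave -0.03 and -0.30. Of this group of 12, 9 differences were negative, with a median of -0.18.

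The 4 subunits of the translocon-associated TRAP complex differed in sign. SSR3, its gamma subunit, had signals of 6751, 7257 and 9380 in HZ, against 5201, 5863 and 6337 in RZ. Every HZ array lay above every RZ array, as in 1.68% of all probe sets, with a difference of 0.37 ± 0.15 that did not pass (SE, adjusted p = 0.169). The second SSR3 probe set gave -0.02 ± 0.16. SSR2 gave -0.44 ± 0.18 (adjusted p = 0.178), SSR1 -0.22 and SSR4 -0.01. Of the signal peptidase, SPCS1, SPCS2 and SPCS3 gave 0.13, -0.25 and -0.18. In the list of other translocation and glycosylation genes, 1 of 19 measured passed: SEC11C, a catalytic subunit of the signal peptidase, rose by 0.85 ± 0.19 (adjusted p = 0.0304). That is 5.26% of the list, where 3.26% of all probe sets rose. SEC11C had signals of 1759, 2434 and 3449 in HZ, against 1212, 1343 and 1632 in RZ, with no overlap. Leaving out each pair in turn, it passed once (adjusted p up to 0.0971). SEC11A, the alternative catalytic subunit, gave 0.11 ± 0.17, did not pass, and is named outside the rule for named genes.

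**Figure D3:**
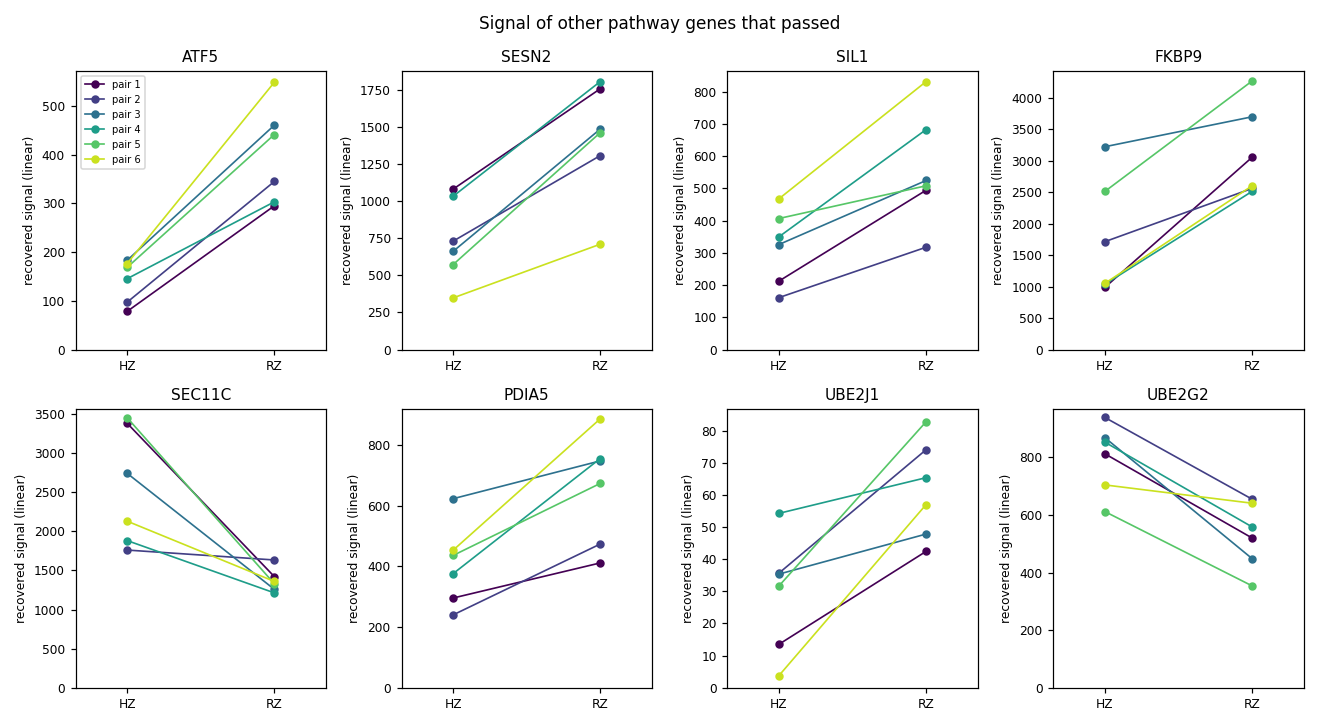
Recovered signal on a linear axis for the 8 other pathway genes that passed, HZ left and RZ right, with a line joining the arrays of each pair. SEC11C and UBE2G2 are higher and the other 6 lower in HZ in all 6 pairs, and the zones of ATF5 and SEC11C do not overlap.

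None of the 7 measured COPII genes passed, 5 were negative, and their median was -0.05. SEC13, which with SEC31A forms the outer COPII cage, had signals of 1253, 1750 and 2039 in HZ, against 1997, 2305 and 2889 in RZ. It was lower in HZ in 6 of 6 pairs, between -0.67 and -0.26, and its difference of -0.44 ± 0.13 did not pass (SE, adjusted p = 0.0882). SEC13 passed with 64 in place of 16 added (limma adjusted p = 0.0184) and when only the brighter probe sets were tested (adjusted p = 0.0352). These settings called 1120 of 24016 and 1374 of 12008 probe sets lower. SEC31A gave -0.32 and the inner coat subunit SEC23A -0.38 ± 0.20 (adjusted p = 0.298). The GTPases that start the coat, SAR1A and SAR1B, gave -0.02 and 0.13, and SEC24C, a cargo adaptor, gave -0.05. MIA3 (TANGO1), which loads bulky procollagen at exit sites, gave 0.14 ± 0.16 at its brightest probe set (95% interval -0.22 to 0.50), and its 4 others gave -0.21 to 0.08.

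Among COPI coat subunits and KDEL receptors, 7 of 8 differences were negative, 0 passed, and the median was -0.17. COPB1, a coat subunit, gave -0.50 ± 0.25 (SE, adjusted p = 0.278) and its neighbour in the coat COPB2 -0.03 ± 0.19. KDELR2 had signals of 2252, 3091 and 4703 in HZ, against 3467, 4405 and 5460 in RZ. It gave -0.48 ± 0.19 (limma adjusted p = 0.172) and was lower in HZ in every pair but pair 3. With 1 pair left out it passed in 1 of 6 fits, that without pair 3 (-0.66, adjusted p = 0.0359), and reached 0.354 in the others. That fit called 895 of 24016 probe sets lower, against 712 in the main one. KDELR1 and KDELR3 gave 0.04 and -0.16, and COPA, COPE and ARCN1 gave -0.17, -0.13 and -0.28. None of 33 other ER-Golgi transport genes passed, and their median was -0.06. Over all 99 other pathway genes, 2 rose (2.02%), 6 fell (6.06%) and 70 were negative (70.7%). Among all probe sets 3.26% rose, 2.96% fell and 51.2% were negative.

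The median difference of the 50 members was -0.01, -0.34, 0.24, -0.55, -0.40 and -0.36 in pairs 1 to 6, against 0.02, -0.13, 0.18, -0.09, 0.04 and -0.07 for the 9155 named genes at their brightest probe sets. In pairs 1 and 3 the member median was thus near that of all named genes, with 26 and 13 of 50 members negative. In pair 1 all 9 chaperones were higher in HZ, with a median of 0.37, and SYVN1, DERL2 and DDIT3 were higher by 0.89, 0.79 and 0.75. TRIB3 and SEC61A1 were lower in that pair too, at -0.85 and -0.42. In pair 3 the coat and channel genes were higher in HZ, with medians of 0.50 for the channel and signal peptidase group, 0.45 for COPII and 0.45 for COPI with the KDEL receptors, where 11 of 12, 6 of 7 and 7 of 8 genes were positive. The stress sensors and factors had a median of -0.45 in pair 3. In pairs 2, 4, 5 and 6 every one of the 7 role groups had a negative median.

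**Figure D4:**
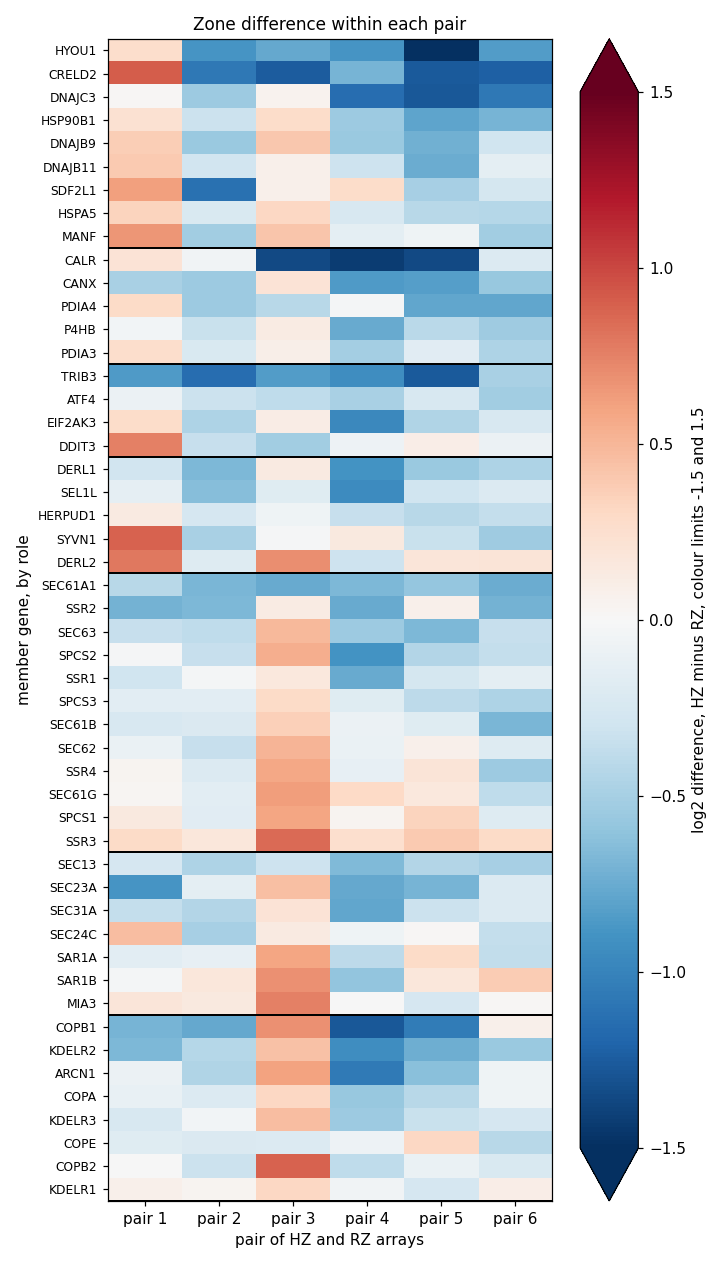
Log2 difference of HZ minus RZ within each of the 6 pairs (columns) for the 50 member genes (rows), ordered by role with lines between the role groups. Red is higher in HZ: the chaperones at the top are red in pair 1, the channel and coat genes in the lower part are red in pair 3, and TRIB3 and SEC61A1 are blue in all 6 pairs.

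**Figure D5:**
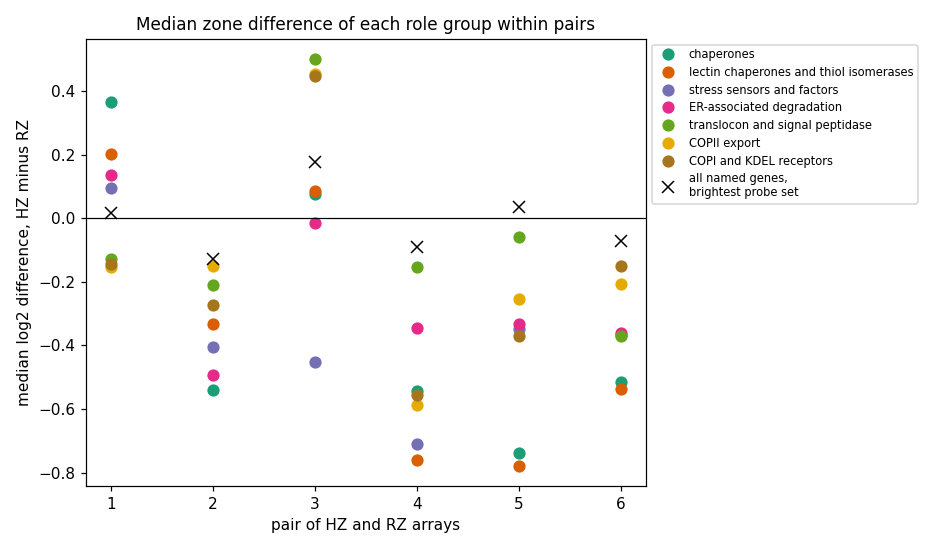
Median log2 difference of HZ minus RZ for the 7 role groups in each pair, with crosses for the median of the 9155 named genes at their brightest probe sets. The chaperone group is at 0.37 in pair 1 and between -0.52 and -0.74 in pairs 2, 4, 5 and 6, and the crosses lie between -0.13 in pair 2 and 0.18 in pair 3.

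Pairs 1 and 2 were set apart from pairs 3 to 6 by the smallest step between their deposited values, 0.0237 to 0.0318 against 0.00884 to 0.0110. No label names a batch. TRIB3 gave -0.99 in pairs 1 and 2 and -0.88 in pairs 3 to 6, and SEC61A1 gave -0.56 and -0.69. Neither passed within either set: the limma adjusted p was 0.346 and 0.0866 for TRIB3 and 0.472 and 0.118 for SEC61A1. CRELD2 was the 1 member that passed in pairs 3 to 6 alone (adjusted p = 0.0460). HYOU1 gave -0.31 and -1.0, CRELD2 -0.08 and -1.11, and CALR 0.08 and -1.09. A test of the difference of the zone effect between these sets passed for 0 of 50 members and for 0.00833% of all probe sets (limma interaction, lowest adjusted p of members = 0.899), with CALR the 1 member at an unadjusted p under 0.05, where 5.03% of all probe sets were.

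The ratio of 3′ to 5′ signal of control probes, a sign of RNA quality, moved with the zones. For actin its log2 value in pairs 1 to 6 was 3.07, 2.08, 3.26, 3.58, 2.32 and 2.43 in HZ, against 1.63, 2.06, 2.58, 2.35, 1.64 and 2.32 in RZ, and it was higher in HZ in all 6 pairs. The log2 ratio of 3′ to 5′ GAPDH control probes was 1.46 on HZ-3 and 1.20 on HZ-4, between -0.09 and 0.27 on the other HZ arrays and between -0.20 and 0.50 on RZ arrays. Several members had probe sets that disagreed in pair 3, where the HSPA5 probe sets gave 0.31, -1.01 and -1.21 and those of CANX 0.21, -1.49 and -0.28. The last of HSPA5 and the last 2 of CANX are dim. The second HSPA5 probe set is bright, at 3942 on HZ-3 and 7966 on RZ-3. In pair 2 the CANX probe sets gave -0.54, 0.18 and 0.86, and those of HYOU1 ran from -0.88 to 1.66. For both genes only dim probe sets were positive in pair 2. The part of RNA quality in these values was not tested. Without pairs 3 and 4, 44 of 50 members were negative with a median of -0.29 and 0 passed, with TRIB3 at -0.93 (limma adjusted p = 0.0726) and SEC61A1 at -0.61 (adjusted p = 0.107), while ATF5 passed at -1.56 (adjusted p = 0.0370) and SESN2 did not at -0.96 (adjusted p = 0.0619). Of the 13 members with several probe sets, 5 held both signs. Over all 75 probe sets 0 rose, 2 fell and 61 were negative.

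Of the hypertrophic zone markers 5 of 7 rose, but COL10A1, the collagen that defines hypertrophic cells, gave 0.11 ± 0.16 (SE, limma adjusted p = 0.755). Its signal was very high in both zones, 15530 to 28359 in HZ and 15245 to 26743 in RZ. Whether probe sets this bright still tell levels apart was not tested. Of the reserve zone markers 4 of 5 fell, and 0 of 5 measured general cartilage markers passed at their brightest probe sets. A dimmer COL11A1 probe set rose by 0.76 ± 0.15 (adjusted p = 0.0189), while its brightest gave 0.17 and the others did not pass. Summed signals of 8 T and NK cell markers ran from 287 to 476 in HZ and from 460 to 1047 in RZ. CD2 and NKG7 fell at their brightest probe sets, which are dim. The second NKG7 probe set gave 0.78, higher in HZ in 6 of 6 pairs without passing (adjusted p = 0.144), and the others of CD2 gave 0.13 and 0.21. Summed signals of 6 markers of B cells and of plasma cells, the latter rich in ER, ran from 370 to 724 in HZ. They ran from 381 to 3453 in RZ, with 0 passing. JCHAIN among them read 2397 on RZ-1 and 2730 on RZ-2, and 66.7 to 331 on the other RZ arrays. Macrophage markers ran from 1401 to 3199 in HZ and from 1021 to 2373 in RZ, with 5 of 8 rising. CD14, the 1 negative among them, gave -0.81 ± 0.26 (adjusted p = 0.103), and its second probe set fell by 1.02 (adjusted p = 0.0254). Granulocyte markers ran from 500 to 2389 in HZ and from 667 to 10448 in RZ with CATHL1 falling. CATHL1 read 5802 on RZ-1 and 3593 on RZ-2, and 110 to 581 on the other RZ arrays. The 5 osteoblast markers ran from 11306 to 15610 in HZ and from 10666 to 29658 in RZ, with DMP1 rising. COL1A1, COL1A2 and BGLAP gave -1.05, -1.12 and -0.99 without passing. IBSP gave 0.14 at its brightest probe set, while its second one rose by 2.20 (adjusted p = 0.00125) with no overlap of the zones. The 6 endothelial markers ran from 248 to 571 in HZ and from 499.99 to 759 in RZ with PECAM1 falling, and the 6 erythroid markers from 57.9 to 153 in HZ and from 112 to 220 in RZ with 0 passing. Their part in the member values was not tested.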

How the data were processed

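The authors deposited linear ratios, 1 per probe set and array, of each array's signal to a centre of that probe set over the 12 arrays. RNA was extracted with RNA STAT-60 and labelled with biotin by an Ambion MessageAmp II kit, per the labels' protocols; the sources used here do not give scanner software, probe summary or normalization. For 21901 of 24128 probe sets the centre was the median over arrays, and for 2227 dim ones a shared divisor. After multiplying by the centre, an array's values were whole numbers of 1 step size, which gave back a signal for all 24128 probe sets (allowing a distance of 0.01 steps, plus 3e-07 for every step counted, and no more than 0.08). The signal unit assumes that 1 step is 0.1 units, which no source states, and the weight of the added 16 depends on it. Array medians of signal were 96.7.

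After 112 controls were left out, 24016 probe sets were tested on log2(signal + 16) with limma 3.58.1 in R 4.3.3. Alternatives were other added constants, the deposited ratio, quantile or median scaling, bright probe sets only, gene means, no block, and subsets of pairs. Arrays sharing a number shifted together around the mean of each zone (correlations 0.124 to 0.447, all above 0.1), and the series description pairs them. The lowest correlations were those of pairs 3 and 4, at 0.124 and 0.161. For 5 of the 6 HZ arrays the RZ array most correlated with it was that of the same number. Gene symbols came from the platform annotation, where 13292 probe sets have 1 symbol, 86 several and 10638 none. The members, lists, alternatives and the rule for named genes were chosen with earlier results of these data known. The rule allows every member to be named, with all array values for those that passed, and names other pathway genes that passed; exceptions are marked where they stand. Steps and fits were tested on simulated data. No sequences of these genes were used here.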

Additional observations from a re-analysis of the deposited data

Results flagged for a closer look

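In all, 6 values stood apart from the other 5 arrays of their zone by Dixon's test at its 95% critical value (0.625 for 6 arrays), among 116 zone groups examined, and chance flags about 1 group in 20. PDIA3 read 8648.6 on RZ-6, with 5808 to 6499 on the other RZ arrays. SPCS2 read 6487.5 on HZ-3, with 2946 to 3780 on the other HZ arrays, and 6038.7 on RZ-4, with 3786 to 4450 on the other RZ arrays. COPB1 read 5094.7 on RZ-4, with 2889 to 3516 on the others. SAR1A read 549.5 on RZ-5, with 903 to 1090 on the others, and SESN2 read 709.7 on RZ-6, with 1307 to 1805 on the others.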

How the results depend on the processing

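Without the replicate block for pairs, 0 members and 1 other pathway gene fell, with 505 probe sets higher and 326 lower over all. With the deposited ratio, 1 member, TRIB3, fell, 0 other pathway genes rose and 2 fell, with 315 probe sets higher, 163 lower and 0 differing between step sets, and with a constant of 1 the counts were 1, 0, 2, 368, 215 and 0. In both settings the 2 other pathway genes were ATF5 and SESN2, so the calls of SIL1, FKBP9, PDIA5, UBE2J1, SEC11C and UBE2G2 were lost. With a constant of 64, 5 members (TRIB3, SEC61A1, HYOU1, ATF4 and SEC13) and 12 other pathway genes fell, with 1120 probe sets lower and 1 differing between step sets, as 1 did after quantile normalization. Among the brighter 12008 probe sets, 8 members (TRIB3, SEC61A1, HYOU1, CRELD2, DNAJC3, CALR, CANX and SEC13) and 12 other pathway genes fell, with 1034 probe sets higher and 1374 lower. With only pairs 1 and 2, limma called 0 in every count. With only pairs 3 to 6, 1 member, CRELD2, fell, while TRIB3 and SEC61A1 did not pass, 1 other pathway gene rose and 2 fell, with 258 probe sets higher and 78 lower. Without pairs 3 and 4, 0 members fell, 0 other pathway genes rose and 1 fell, with 91 probe sets higher and 48 lower. The causes of these moves were not tested, beyond the fewer arrays or probe sets that some of them use.

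With 1 pair left out, 1 to 4 members fell (4 without pair 3, 3 without pair 1), 0 to 2 other pathway genes rose and 2 to 10 fell, with 334 to 650 probe sets higher and 223 to 895 lower over all. From 35 to 44 members were negative, with a median of -0.29 to -0.16, and 0 rose in each of these fits. Low signal limits dim probe sets such as that of UBE2J1.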
